A study of Homo sapiens with 16 samples.

Results

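Clusters of MED1 binding sites were examined in HCT116, an established line from a human colorectal carcinoma. Peaks of MED1 listed in unmodified (WT) cells after DMSO were joined where the gap between neighbours was at most 12500 bp, and the peaks of joined regions holding at least 3 were kept. Of 1106 peaks in the list, 341 (30.8%) met this rule, and they formed 76 clusters. The others were 595 single peaks and 170 peaks in 85 pairs. The positions in this list chose the members, so cluster lengths, spacings and folds in WT cells with DMSO are descriptions without a test. The overlaps with the other 5 lists come from separate libraries.

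The study profiled MED1 by ChIP-seq with 1 antibody in 16 samples, of which 8 were MED1 libraries and 8 were inputs. WT cells received DMSO or Nutlin-3a, an inhibitor of the MDM2 and p53 interaction that raises p53, for 1 h. The edited line, labelled OsTir1+/-;Med14-AID+/+, carries an auxin-inducible degron on the Mediator subunit MED14 and the plant protein OsTIR1 that recognises it. It received water or 500 µM auxin for 3 h, and each of these arms was sampled without Nutlin-3a or after a further 1 h with it. All 4 MED14-AID groups carry both edits, and the water groups are the matching controls for the auxin groups. Whether the edited line is 1 clone is not given in the sources used here. Each WT list was made jointly from 2 MED1 libraries and each MED14-AID list from 1, so a difference between lists had no spread between replicates to be set against and none was tested. WT and MED14-AID lists also differ in line, vehicle and number of libraries, which cannot be told apart. Peak lists hold no expression, so the identity of the line was not checked against marker genes.

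Mediator is a large complex through which transcription factors bound at enhancers act on RNA polymerase II. MED14 forms the backbone that holds its modules together, and MED1 is a subunit contacted by many activators. Enhancers often lie in groups near genes that define a cell's identity, and dense groups with much Mediator are known as super-enhancers. Such groups are commonly found by joining neighbouring peaks and ranking the joined regions by signal. No signal ranking was made here, so the clusters are groups by distance only and are not called super-enhancers. In a population of cells, fewer cells with MED1 at a site and less MED1 per cell cannot be told apart.

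Gene names below are background from the known human gene map and were not assigned by coordinates. Each of the 17 symbols used for 20 clusters stands on the same chromosome in the RefSeq gene table of GRCh38.p14. To show what kinds of genes lie at prominent clusters, the 250 bases upstream of the annotated start are given for 3 of them from the RefSeq promoter table of GRCh38.p14, 5′ to 3′ on the gene's strand. PCDH7 encodes a cell adhesion protocadherin, EZR encodes ezrin, which ties membranes to actin, and ID1 encodes an inhibitor of basic helix-loop-helix transcription factors. Capitals mark a match to a motif searched on both strands.
PCDH7, GRCh38.p14 chr4:30720119-30720368, plus strand: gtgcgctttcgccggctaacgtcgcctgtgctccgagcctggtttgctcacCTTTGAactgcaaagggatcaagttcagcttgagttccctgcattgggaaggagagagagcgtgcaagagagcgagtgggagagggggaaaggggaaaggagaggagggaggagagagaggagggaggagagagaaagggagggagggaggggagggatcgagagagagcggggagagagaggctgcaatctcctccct
EZR, GRCh38.p14 chr6:158818236-158818485, minus strand: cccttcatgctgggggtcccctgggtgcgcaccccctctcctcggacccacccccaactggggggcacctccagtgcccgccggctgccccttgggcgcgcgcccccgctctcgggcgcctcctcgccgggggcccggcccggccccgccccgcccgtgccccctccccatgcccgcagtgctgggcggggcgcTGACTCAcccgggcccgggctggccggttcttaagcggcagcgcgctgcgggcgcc
ID1, GRCh38.p14 chr20:31605039-31605288, plus strand: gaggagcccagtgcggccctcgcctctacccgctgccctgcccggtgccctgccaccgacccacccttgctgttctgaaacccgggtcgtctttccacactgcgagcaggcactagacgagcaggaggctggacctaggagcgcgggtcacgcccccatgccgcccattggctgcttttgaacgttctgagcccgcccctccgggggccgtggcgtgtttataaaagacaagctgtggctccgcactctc

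The motifs searched were AP-1 (TGANTCA), TEAD (GGAATG), TCF (CTTTGA), FOX (TGTTTAC), KLF (GGGTGTGG) and CEBP (TTGCGCAA). The PCDH7 window held the TCF letters and the EZR window the AP-1 letters, and none of the 6 was in the ID1 window. Among 35116 promoters of the same length, 11.2% held the TCF letters and 6.57% the AP-1 letters. A match is a string of letters and not a site. The lists are in hg19 coordinates, so whether a member covers these windows was not tested.

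Other clusters lay at genes for microRNAs, short RNAs that lower the output of messages paired with their seed. The mature forms at the LINC-PINT, MIR31HG and MIR100HG loci are given from RefSeq (GRCh38.p14), with the seed, bases 2 to 8, in capitals. All 3 seeds differ.
hsa-miR-29a-3p: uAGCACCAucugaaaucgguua
hsa-miR-31-5p: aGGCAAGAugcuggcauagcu
hsa-miR-100-5p: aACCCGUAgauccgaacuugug

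Most clusters were small. Of the 76, 38 held 3 peaks, 11 held 4, 12 held 5 and 15 held 6 or more. These 15 together held 123 of the 341 members. Length ran from 3.52 kb to 87.5 kb with a median of 14.6 kb, and the clusters together spanned 1335 kb, of which the members themselves covered 469.5 kb. The covered part of a cluster ran from 9.48% to 85.1%, with a median of 34.0%, so in the median cluster most of the sequence lay between peaks.

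The members lay closer together than the threshold required. The 265 gaps inside clusters had a median of 1817 bp and a smallest value of 52 bp. Just inside the threshold the widest gaps were 12373 and 11764 bp, and just outside it the nearest peaks were 13388 and 13477 bp away. From a cluster to the next listed peak on either side the median gap was 84.2 kb, and 31 of the 76 clusters had another cluster within 200 kb. Length rose with the number of peaks (Spearman's rho 0.634 across the 76 clusters), which share the same list and the same gap limit.

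**Figure D1:**
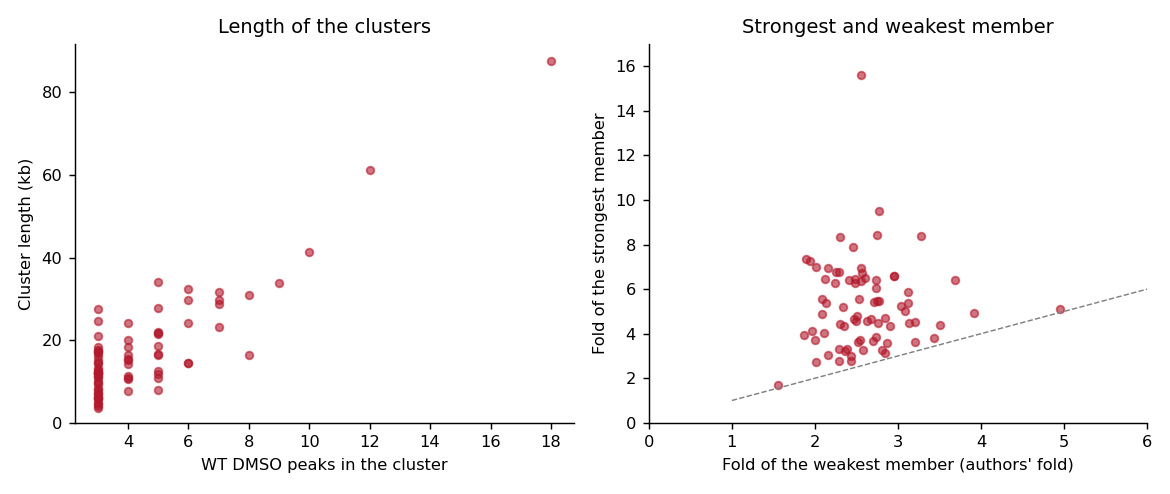
Each point is 1 of the 76 clusters. The left panel plots length in kb against the number of peaks in the cluster, with the 18-peak cluster at 87.5 kb, and the right panel plots the authors' fold of the strongest member against that of the weakest, with equality as a dashed line and the cluster of highest fold at 15.6.

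The clusters were spread unevenly over the chromosomes. Chromosomes 8 and 12 each carried 10 clusters, with 49 of 107 peaks on chromosome 8 and 40 of 94 on chromosome 12 as members. On chromosome 4, 6 clusters took 38 of 76 peaks. Chromosome 17 had 84 peaks and 12 members, and chromosome 1 had 83 peaks and 16 members. No cluster lay on chromosomes 5, 16, 19, 22 or Y. Chromosomes 8, 10, 16 and 17, of which HCT116 is known to carry gained segments, together held 19 of the 76 clusters and 25.4% of all listed peaks.

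Strength is given as the authors' fold enrichment over background, a ratio used only to describe and rank peaks within its own list. In WT cells with DMSO the median fold was 3.30 for members, 3.19 for peaks in pairs and 3.13 for single peaks. The highest fold of a member was 15.6, against 44.0 for a single peak. Median −log10 q, the peak caller's measure of evidence, was 12.1 for members, 9.16 for pairs and 8.43 for single peaks. Median width was 1045 bp, 886 bp and 674 bp in the same order, so members were wider as well. Among the 141 peaks with a fold of at least 5, 63 were members.

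Inside a cluster the strengths were unequal. The strongest member had a fold from 1.68 to 15.6 with a median of 4.96, and the weakest from 1.56 to 4.95 with a median of 2.55. The ratio of strongest to weakest ran from 1.03 to 6.09, with a median of 1.89. The strongest member held from 11.1% to 60.7% of the cluster's summed fold, with a median of 35.2%. This share cannot fall below an equal part, which is larger where a cluster has fewer peaks. In the cluster of 3 nearly equal peaks on chromosome X it was 33.7%. The strongest member stood at an edge in 38 clusters and between others in 38. Clusters with more peaks had a stronger leading member, with a median fold of 4.54 for 3 peaks, 5.20 for 4 or 5 and 6.74 for 6 or more (rho 0.419 across the 76 clusters). A maximum over more peaks is higher by construction.

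With Nutlin-3a in WT cells, MED1 was listed at nearly every cluster. A peak of that list overlapped 299 of 341 members by at least 1 bp (87.7%, Wilson 95% interval 83.8 to 90.8), against 73.5% of all 1106 peaks. The share was 81.2% for peaks in pairs and 63.2% for single peaks (376 of 595, 59.2 to 67.0). By cluster, 75 of 76 held at least 1 shared member (98.7%, 92.9 to 99.8), and in 43 every member was shared. Among the 85 pairs, which have fewer peaks to be met, 82 held at least 1 shared peak (96.5%, 90.1 to 98.8). Joined in the same way, the Nutlin-3a list gave 92 clusters of its own, which met 61 of the 76. All intervals here cover the counting of peaks only.

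In MED14-AID cells with water, a smaller share of the members was listed, yet most clusters were still represented. The water list overlapped 169 members (49.6%, 44.3 to 54.8), against 33.3% of all peaks in the WT DMSO list and 22.9% of single peaks (19.7 to 26.4). Peaks in pairs lay between, at 37.1% (30.2 to 44.5). With water and Nutlin-3a, 180 members were listed (52.8%, 47.5 to 58.0), against 34.8% of all peaks and 21.8% of single peaks (18.7 to 25.3). Here peaks in pairs stood at 44.1% (36.9 to 51.6), an interval that overlaps that of members. At least 1 member was listed in 64 clusters with water (84.2%, 74.4 to 90.7) and in 66 with water and Nutlin-3a (86.8%, 77.4 to 92.7). Among the 85 pairs, which have fewer peaks to be met, these counts were 46 (54.1%) and 56 (65.9%). Every member was listed in 8 and 11 clusters. Clusters of 3 or more peaks could be rebuilt from these lists at 32 and 38 of the 76 sites, and from the auxin lists at 1, a weak cluster on chromosome 21, and 0.

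After auxin, MED1 was listed at few clusters, and no cluster kept 3 members. The auxin list overlapped 11 members (3.23%, 1.81 to 5.68), against 3.44% of all peaks and 4.03% of single peaks (2.73 to 5.93). The list with auxin and Nutlin-3a also overlapped 11 (3.23%), against 5.24% of all peaks and 6.72% of single peaks (4.98 to 9.03). Peaks in pairs stood at 1.76% with auxin and 4.12% with auxin and Nutlin-3a. At least 1 member was listed in 10 clusters with auxin (13.2%, 7.31 to 22.6) and in 11 with auxin and Nutlin-3a (14.5%, 8.28 to 24.1). Among the 85 pairs these counts were 3 (3.53%) and 7 (8.24%). In both auxin lists the share of members lay near or under the share of all peaks, whereas with water the share of members lay above it.

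**Figure D2:**
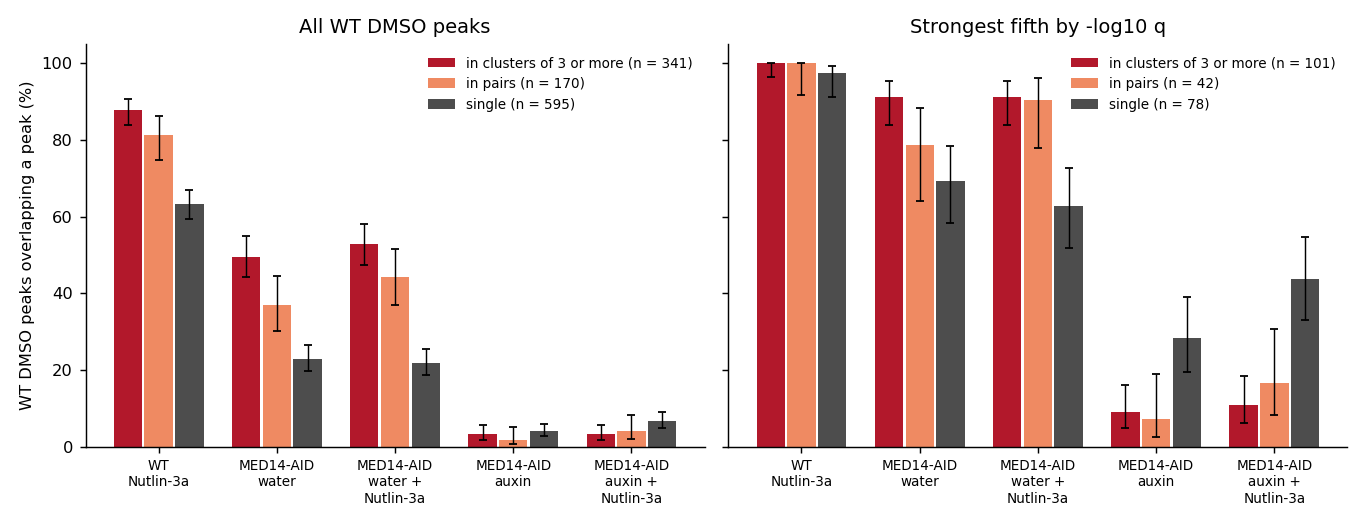
Share of WT DMSO peaks that overlap a peak of each other list (%), for members of clusters, peaks in pairs and single peaks, with Wilson 95% intervals as error bars. The left panel takes all WT DMSO peaks and the right panel those of the strongest quintile by −log10 q. In the left panel members sit above single peaks in the 3 lists without auxin (87.7% against 63.2% in WT with Nutlin-3a). They do not in the lists with auxin (3.23% against 4.03% and 6.72%).

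Taken only over sites that were listed with water, members again stood below single peaks in both auxin lists, by more than over all sites. Of 169 members in the water list, 9 were in the auxin list (5.33%, 2.83 to 9.81), and of 136 single peaks 23 were (16.9%, 11.5 to 24.1). With Nutlin-3a the counts were 11 of 180 members (6.11%, 3.45 to 10.6) and 25 of 130 single peaks (19.2%, 13.4 to 26.8). Peaks in pairs stood at 3 of 63 (4.76%) and 7 of 75 (9.33%). The water lists set these totals, and they held a larger share of members than of single peaks. Of the peaks listed with auxin, 9 of 11 members and 23 of 24 single peaks were in the water list. With auxin and Nutlin-3a, 11 of 11 members but only 25 of 40 single peaks were in the matching water list. Of the 64 clusters with a water peak, 55 had none with auxin, and of the 66 with a peak in water and Nutlin-3a, 55 had none with auxin and Nutlin-3a.

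Since members had higher −log10 q than single peaks, they were also compared within quintiles of the WT DMSO list by this measure. The strongest quintile, with −log10 q of 21.2 or more, held 101 members, 42 peaks in pairs and 78 single peaks, with medians of 39.1, 37.2 and 36.5. It has no upper limit, and the highest values, 247, 129 and 896 in the same order, were not matched. In WT cells with Nutlin-3a, 101 of 101 members and 76 of 78 single peaks (97.4%) were listed there. With water, 92 members (91.1%, 83.9 to 95.2) and 54 single peaks (69.2%, 58.3 to 78.4) were listed, and with water and Nutlin-3a 92 members (91.1%) and 49 single peaks (62.8%, 51.7 to 72.7). With auxin the order was reversed, at 9 members (8.91%, 4.76 to 16.1) and 22 single peaks (28.2%, 19.4 to 39.0). With auxin and Nutlin-3a it was 11 members (10.9%, 6.19 to 18.5) and 34 single peaks (43.6%, 33.1 to 54.6). Peaks in pairs were near members in several lists. In the same quintile 42 of 42 were in WT Nutlin-3a, 33 in the water list (78.6%, 64.1 to 88.3), 38 in that of water and Nutlin-3a (90.5%, 77.9 to 96.2), 3 in auxin (7.14%, 2.46 to 19.0) and 7 in auxin and Nutlin-3a (16.7%, 8.32 to 30.6). In each of the 5 lists the intervals of members and of peaks in pairs overlap.

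In the weak part of the list, members and peaks in pairs both stood above single peaks in WT cells with Nutlin-3a. In the weakest quintile, 35 of 54 members (64.8%) overlapped a peak with Nutlin-3a in WT cells, against 19 of 31 peaks in pairs (61.3%) and 36 of 137 single peaks (26.3%). With water the same quintile gave 7 of 54 members (13.0%), 7 of 31 peaks in pairs (22.6%, 11.4 to 39.8) and 10 of 137 single peaks (7.30%). In the middle quintile, water peaks overlapped 20 of 60 members (33.3%), 8 of 34 peaks in pairs (23.5%) and 21 of 127 single peaks (16.5%). In the next stronger one they overlapped 40 of 71 (56.3%), 11 of 30 (36.7%) and 34 of 120 (28.3%).

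**Figure D3:**
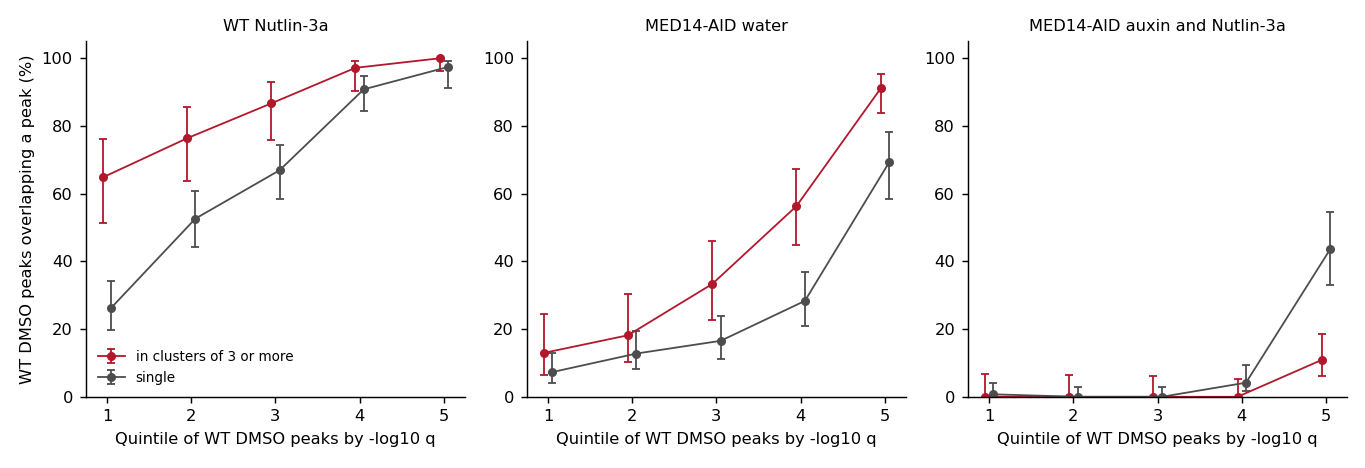
Share of WT DMSO peaks overlapping a peak (%) by quintile of the WT DMSO list from weakest (1) to strongest (5) by −log10 q, for members and single peaks, in 3 lists, with Wilson 95% intervals. In the strongest quintile members reach 91.1% and single peaks 69.2% with water, while with auxin and Nutlin-3a members reach 10.9% and single peaks 43.6%.

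The comparison changed with the way of counting overlap. Where each peak had to cover 50% of the other, the share of strongest-quintile members in the water list was 60.4%, which lay 4.99 points under single peaks, and the difference in WT cells with Nutlin-3a became -3.08 points. Over all members the same setting gave 32.8% in the water list and 36.7% with water and Nutlin-3a, and 0.293% and 0.880% in the auxin lists. Taken over the members of the matching water list, it left 0.893% with auxin and 2.40% with auxin and Nutlin-3a. Where the summit had to lie in the other peak, the shares with water were 89.1% of strongest-quintile members and 69.2% of single peaks there. Over all peaks, members stayed above single peaks in the 3 lists without auxin and below them in both lists with auxin under each of 9 other settings. Members were wider than single peaks, and the part of width in the differences was not tested.

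Within a cluster, the member that was strongest in WT cells with DMSO was the one most often listed elsewhere. With Nutlin-3a in WT cells, 73 of 76 strongest members (96.1%) and 226 of 265 other members (85.3%) were listed. With water the counts were 59 of 76 (77.6%) and 110 of 265 (41.5%), and with water and Nutlin-3a 66 (86.8%) and 114 (43.0%). With auxin, 9 of 76 strongest members (11.8%) and 2 of 265 others (0.755%) were listed, and with auxin and Nutlin-3a 10 (13.2%) and 1 (0.377%). Over all 1106 peaks the shares were 73.5%, 33.3%, 34.8%, 3.44% and 5.24% in the same order of lists. The strongest members were chosen on the WT DMSO list alone. They were not set against peaks of like strength, so the part of strength in the difference was not tested. In the strongest quintile, single peaks stood at 28.2% and 43.6% in the 2 auxin lists, and peaks in pairs at 7.14% and 16.7%. With a reciprocal overlap of 50%, the shares of strongest and other members were 51.3% and 27.5% with water and 1.32% and 0% with auxin.

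The leading position was not always the same across lists. A cluster with few listed peaks has few places for the highest fold, and no chance level was worked out. Among clusters with at least 2 peaks in a list, the highest fold lay on the strongest WT DMSO member in 42 of 72 clusters with Nutlin-3a in WT cells (58.3%), in 24 of 48 with water and in 31 of 52 with water and Nutlin-3a (59.6%). Ranked by their highest fold, clusters held a like order in the WT lists (rho 0.859 over 75 clusters). For water it was 0.544 over 64 clusters, and for water and Nutlin-3a 0.673 over 66. These are descriptions across clusters that share libraries.

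Large clusters were more often represented in the water lists, while the share of their members had no steady order with size. All 15 clusters of 6 or more peaks had a peak in both water lists, against 30 and 31 of the 38 clusters of 3. A cluster with more members has more chances to be met. The share of members in the water list was 47.4% in clusters of 3, 50.0% in clusters of 4 or 5 and 51.2% in larger ones. With water and Nutlin-3a it was 57.0%, 49.0% and 52.0% in the same order, and within each list the 3 intervals overlap.

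Read over all lists, 51 clusters had the same pattern, with a peak in WT Nutlin-3a and both water lists and none in the auxin lists. A further 8 were in all lists and 9 in WT Nutlin-3a only. Among members, 132 were in WT Nutlin-3a and both water lists and in no auxin list, 100 were in WT Nutlin-3a only and 36 in no other list. These are 38.7%, 29.3% and 10.6% of the members, and the same patterns took 22.9%, 33.2% and 25.2% of all 1106 peaks. Few peaks of the other lists lay inside a cluster's span without touching a member, at 28 in WT Nutlin-3a, 4 in water, 3 in water and Nutlin-3a, 1 in auxin and 0 in auxin and Nutlin-3a.

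**Figure D4:**
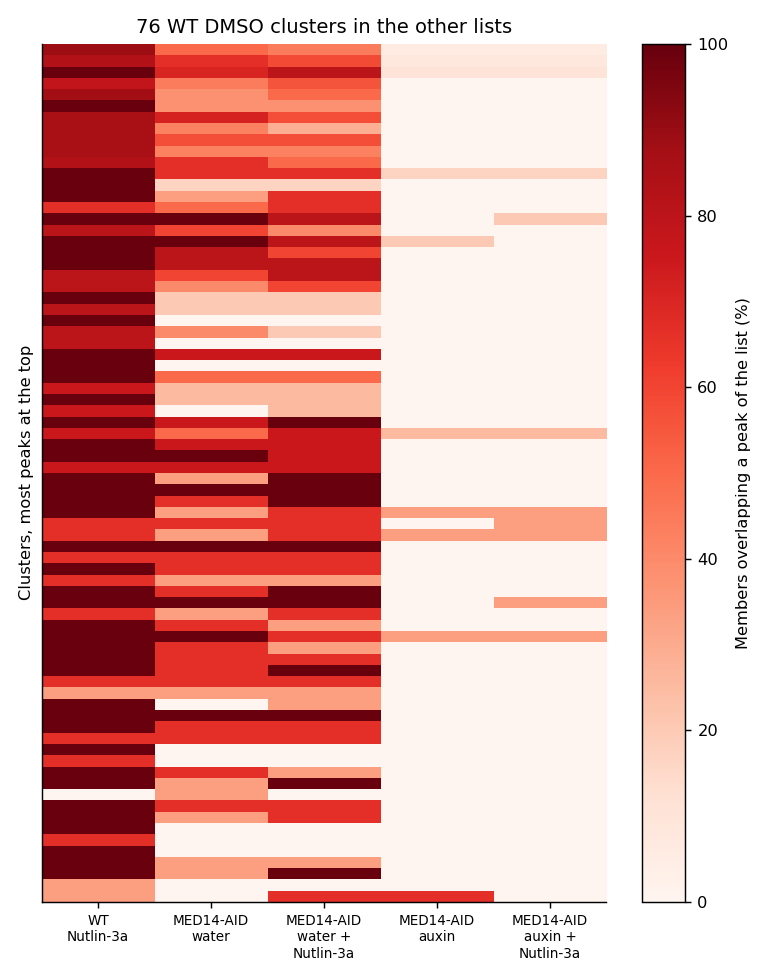
Each row is 1 of the 76 clusters and each column 1 of the other 5 lists, with colour for the share of the cluster's members that overlap a peak of the list (%). Most rows are dark for WT Nutlin-3a, mixed for both water lists and empty for both auxin lists, where 10 and 11 clusters have any peak.

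The clusters took a larger part of the water lists than of the auxin lists. Peaks inside the spans of the 76 clusters were 324 of 1254 in WT Nutlin-3a (25.8%), 189 of 463 with water (40.8%, 36.4 to 45.4) and 198 of 522 with water and Nutlin-3a (37.9%, 33.9 to 42.2). With auxin they were 12 of 53 (22.6%, 13.5 to 35.5), and with auxin and Nutlin-3a 12 of 66 (18.2%, 10.7 to 29.1). Inside the spans the median fold was 4.56 with water, against 4.35 elsewhere in that list, and 4.09 with auxin, against 5.63 elsewhere in that list. Without the cluster on chromosome 21, which held 3 weak peaks, the auxin list had 9 of 53 peaks in the spans.

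The largest cluster lay at PCDH7 on chromosome 4, 30754764 to 30842246 (hg19), with 18 peaks over 87.5 kb. Folds of its members in WT cells with DMSO ran from 2.02 to 6.98, and the strongest, at 30756789 to 30761088, held 11.1% of the summed fold. In WT cells with Nutlin-3a 16 of the 18 members were listed, in the water list 9, and with water and Nutlin-3a 8. With auxin the strongest member alone remained in both lists, at folds of 4.61 and 5.05 within those lists. The fold there was 8.49 in WT Nutlin-3a, where the highest of the cluster, 9.42, lay elsewhere, 10.6 in the water list and 11.7 with water and Nutlin-3a. A smaller cluster of 4 peaks on the same chromosome, 30947180 to 30954950, had all 4 members in WT Nutlin-3a, 2 in each water list and none in the auxin lists.

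The cluster with the highest fold lay at SYTL3, which encodes a protein of vesicle traffic, and EZR, on chromosome 6, 159118790 to 159160145, with 10 peaks over 41.4 kb. Its members had folds from 2.56 to 15.6, the widest ratio of all clusters (6.09). The strongest, at 159149378 to 159153154, had the highest fold of any member. The other lists gave this site 14.6 in WT Nutlin-3a, 14.7 with water, 14.3 with water and Nutlin-3a, 6.28 with auxin and 6.84 with auxin and Nutlin-3a, each on its own list's scale. All 10 members were in WT Nutlin-3a, 7 in water and 8 in water and Nutlin-3a. The member with the next highest fold, 8.63, at 159140237 to 159142674, was in these 3 lists and in neither auxin list.

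**Figure D5:**
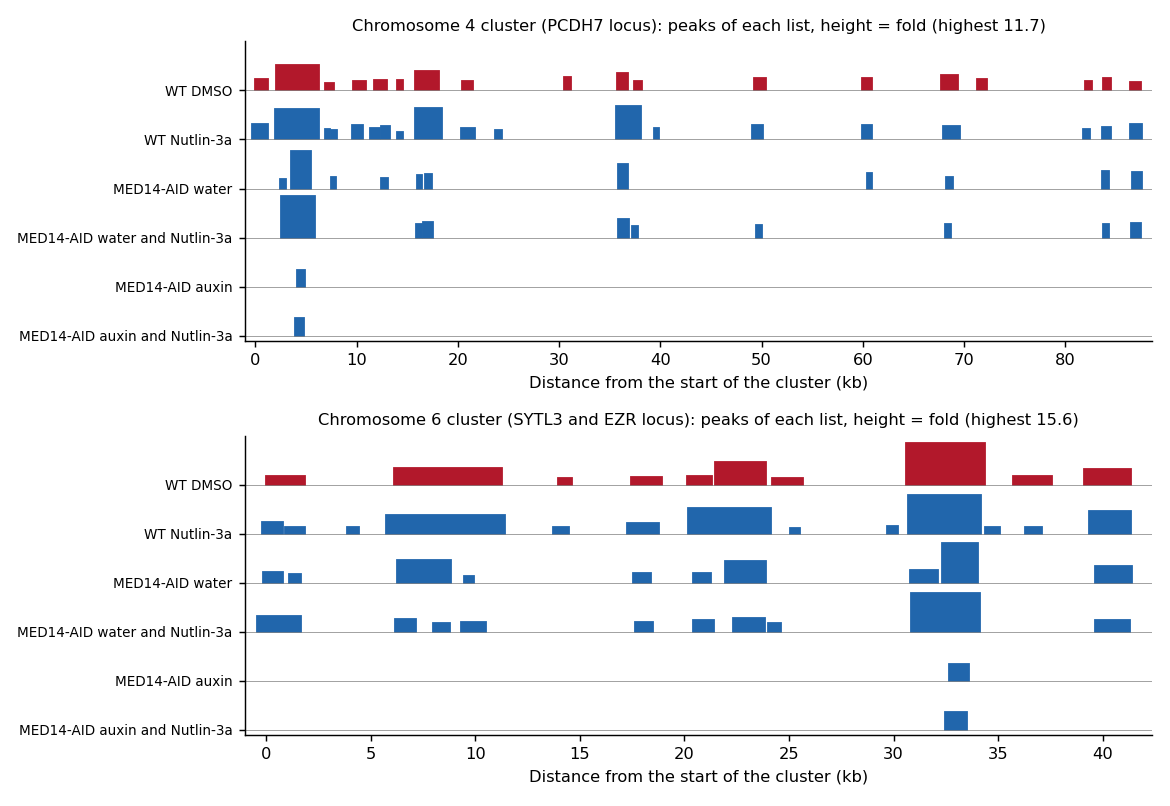
Peaks of each of the 6 lists along the clusters drawn, as distance from the cluster's start in kb, with bar height for the authors' fold in that list. At the PCDH7 and the SYTL3 and EZR clusters many peaks are drawn in the lists without auxin and 1 in each list with auxin.

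At the colon cancer-associated long noncoding RNA gene CCAT1, on chromosome 8, 128218228 to 128279465, 12 peaks spanned 61.2 kb with folds from 1.94 to 7.25. WT Nutlin-3a listed 10 members, water 8 and water and Nutlin-3a 7. Here the peak that remained with auxin was not on the strongest member. It lay on the widest one, 9140 bp long at 128230708 to 128239847, whose fold in WT DMSO was 5.81, and had a fold of 3.40 with auxin and 3.72 with auxin and Nutlin-3a. The strongest member, at 128257321 to 128262199, had a fold of 11.03 with water and was in neither auxin list.

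Another group of clusters lay on chromosome 7 around the long noncoding RNA gene LINC-PINT and MIR29A, the gene of the first microRNA sequence above. It comprised 130522747 to 130539262 with 8 peaks, 130570644 to 130601525 with 8 and 130671292 to 130701025 with 7. Their strongest folds in WT DMSO were 6.94, 6.75 and 6.06. In WT Nutlin-3a 8, 7 and 6 members were listed, with water 3 in each, and with water and Nutlin-3a 3, 4 and 2. None of these 23 members was in an auxin list.

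At MIR31HG on chromosome 9, host of the second microRNA, clusters of 5 and 6 peaks lay at 21558437 to 21592541 and 21674375 to 21688764. All 5 and all 6 members were in WT Nutlin-3a, and 5 and 4 were in the water list. Each kept its strongest member with auxin, at folds of 3.65 and 4.41, and the cluster of 6 also with auxin and Nutlin-3a, at 5.95. The next cluster along chromosome 9, of 5 peaks at 21776052 to 21803785, had none in an auxin list. Of its members 5 were in WT Nutlin-3a, 4 in the water list and 3 with water and Nutlin-3a. At MIR100HG on chromosome 11, host of the remaining microRNA, 7 peaks lay at 122050999 to 122074278. Of these 6 were in WT Nutlin-3a, 4 in each water list and none in the auxin lists.

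At ID1 on chromosome 20, 30180837 to 30199534, 5 peaks spanned 18.7 kb, and the strongest, at 30191846 to 30197583, had a fold of 9.48, the next highest after the SYTL3 and EZR cluster. The highest fold of the cluster was 10.0 in WT Nutlin-3a, 13.3 in the water list and 11.3 with water and Nutlin-3a, in each case on the same member. No member was listed with auxin. At DLGAP1 on chromosome 18, which encodes a synaptic scaffold protein, 7 peaks lay at 3594144 to 3625702 with a strongest fold of 8.34. Of its members 6 were in WT Nutlin-3a, 5 in the water list and 4 with water and Nutlin-3a, at highest folds of 8.58, 9.35 and 11.4, and none with auxin. These clusters had some of the highest folds with water and no listed peak with auxin.

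Peaks in either auxin list were found in 13 clusters, and 8 of these had them in both. Over both lists 14 members were involved, of which 12 were the strongest of their cluster, and 12 of the 13 clusters had exactly 1 such member. In every class, the peaks listed with auxin came mainly from the strongest quintile of the WT DMSO list. With auxin these were 9 of 11 members, 3 of 3 peaks in pairs and 22 of 24 single peaks. With auxin and Nutlin-3a they were 11 of 11, 7 of 7 and 34 of 40 in the same order. Among peaks inside clusters, the highest fold in each auxin list lay in a cluster of 3 peaks on chromosome 8, 6502307 to 6508064, at 7.63 with auxin and 14.2 with auxin and Nutlin-3a. A neighbouring cluster of 3, at 6451284 to 6460995, had folds of 4.90 and 4.62. At NTSR1 on chromosome 20, the gene of a neurotensin receptor, the cluster at 61366407 to 61372413 had folds of 6.86 and 7.71. A cluster of 4 downstream of TRIB1, which encodes a pseudokinase, at chromosome 8, 126691449 to 126711365, had 3.78 and 3.54. Its larger neighbour at 126648946 to 126677779, with 7 peaks, had 6 members in WT Nutlin-3a, 3 in each water list and none in an auxin list. Both were named after their values were seen. In 3 clusters a peak was listed with auxin and Nutlin-3a only. These lay on chromosome 8 at 94885078 to 94896812 (fold 4.55) and at 130696900 to 130724361 (3.47), and on chromosome 12 at 65887970 to 65905019 (4.41).

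The exception to the single kept member was a cluster of 3 weak peaks on chromosome 21, 11109536 to 11127897, close to the centromere. Its folds were 1.56 to 1.68 in WT DMSO, the lowest leading fold of any cluster. Of its members 2 were in the auxin list and the same 2 in that of water and Nutlin-3a, none was in the water list, and the third was in WT Nutlin-3a at 1.58. Only this cluster had peaks with auxin without any in the matching water list.

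All members of a cluster were in WT Nutlin-3a and both water lists in 4 clusters, each of 3 peaks. They lay on chromosome 12 at 65887970 to 65905019, on chromosome X at 46179529 to 46187704, on chromosome 17 at 39106926 to 39113843 and on chromosome 9 at 132244248 to 132259478. On chromosome X the members were nearly equal, with folds of 4.95 to 5.10 and the lowest ratio of all clusters, 1.03.

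At the other end, 9 clusters were in WT Nutlin-3a and in no MED14-AID list. The one with the highest fold, 5.45, lay on chromosome 10 at 11917173 to 11941219, with all 4 members in WT Nutlin-3a. The next were on chromosome 3 at 114362204 to 114370206, on chromosome 11 at 65666567 to 65683850, and on chromosome 12 at 13712601 to 13734561 and 76338026 to 76354285. A single cluster, on chromosome 1 at 1357822 to 1369777, was in no WT Nutlin-3a peak. Its folds were 2.85 to 3.15, and 1 of its 3 members was in the water list at a fold of 5.75.

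At PHLDB2 on chromosome 3, which encodes a protein of the cell cortex, 9 peaks at 111621315 to 111655088 had 7 members in WT Nutlin-3a, 4 in the water list and 5 with water and Nutlin-3a. At ZFP36L1 on chromosome 14, which encodes a protein that promotes mRNA decay, 4 peaks at 69246474 to 69262949 had 4, 3 and 3. At BCL2L1 on chromosome 20, the gene of the survival protein BCL-XL, 3 peaks at 30300303 to 30311469 had 3, 1 and 3. At the type II keratin genes KRT80 and KRT7 on chromosome 12, clusters of 3 lay at 52585556 to 52610244 and 52623722 to 52630008, each with 3 members in WT Nutlin-3a and 2 with water. None of these 5 clusters was in an auxin list. All but PHLDB2 were named after their values were seen, as were the MIR100HG cluster and the cluster of 4 at PCDH7. The same holds for both clusters of 5 described on chromosome 9.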

How the data were processed

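MED1 ChIP-seq peak lists of 6 conditions (2 MED1 libraries per WT list, 1 per MED14-AID list) were used as the authors deposited them. Per the submitters' processing notes, Bowtie 0.12.9, MACS2 2.1.2 and hg19 were used; settings are not given in the sources used here. The deposited fold is a ratio, enrichment over background, the deposited −log10 values used are of q, and the deposited score is 10 times that value cut to a whole number and adds nothing. The lists hold no read counts, so depth is unknown and can set how many peaks were listed.

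Peaks up to 12500 bp apart were joined, and overlap meant at least 1 bp. The same peak of another list could therefore count for several neighbouring members. Wilson 95% intervals cover counting only. Scripts ran in Python 3.11.15 with pandas 2.3.3 and numpy 2.4.6, and plots were drawn with matplotlib 3.10.9. On 11 counts set against bedtools 2.31.1, 0 differed, and 500 of 500 simulated regions were recovered. The members, lists and gene names were chosen with earlier results of these data known. Clusters were named by number of peaks, length, highest fold, fold in the auxin lists, absence from WT Nutlin-3a or from every MED14-AID list, completeness and ratio of strongest to weakest. Positions are 1-based. Sequences under the peaks are not analysed here.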

Additional observations from a re-analysis of the deposited data

How the results depend on the processing

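The number of clusters stayed within 1.5 times under every setting tried. With a joining gap of 5 kb there were 223 members, 100% of clusters had a peak in WT Nutlin-3a, and 32.7% of the strongest-quintile single peaks were listed after auxin plus Nutlin-3a. With −log10 q of at least 5 in every list, 100% of clusters were in WT Nutlin-3a and 82.6% of the strongest-quintile single peaks in water. A reciprocal overlap of 50% gave lower shares in the order WT Nutlin-3a, water, water and Nutlin-3a, auxin, auxin and Nutlin-3a. For members they were 71.6%, 32.8%, 36.7%, 0.293% and 0.880%, and for strongest-quintile members 93.1%, 60.4%, 62.4%, 0.990% and 2.97%. For clusters in the last 4 lists they were 69.7%, 76.3%, 1.32% and 3.95%. Counting a gap of 1 kb as shared gave members of 93.0%, 58.4% and 58.9% in the 3 lists without auxin. Strongest members were above other members in each list under every setting that was run for them. In the order of lists above, a reciprocal overlap of 50% gave 88.2%, 51.3%, 59.2%, 1.32% and 3.95% for strongest members, 66.8%, 27.5%, 30.2%, 0% and 0% for the others, and 0.893% and 2.40% for members kept from the matching water lists. Strongest members in WT Nutlin-3a reached 100% with the 5 kb gap and with −log10 q of at least 5, and other members in both auxin lists 0%. Without chromosomes 8, 10, 16 and 17 other members were at 0% with auxin and Nutlin-3a. A gap of 1 kb counted as shared put other members at 92.1%, 52.8% and 50.9% in the lists without auxin. Rebuilt clusters were 30.9% of clusters with water and Nutlin-3a at the 5 kb gap and 90.6% in WT Nutlin-3a under the −log10 q limit of 5. For auxin alone they fell to 0% under both settings and without the chromosome 21 cluster. Added after the data were seen were the summit setting, quintiles by fold, leaving out the chromosome 21 or the largest cluster, and every setting for results other than members and clusters. No paired analysis was possible because each WT list is joint over both replicates, and for the same reason no replicate could be left out. Sequencing depth was not given, and a site without a listed peak may hold weaker MED1.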
